A study of Mus musculus with 24 samples.

Results

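The transcripts of NRF2, of its regulators and partners, and of antioxidant enzymes and related genes were followed in mouse lung through 72 h of ozone (O3). The list held 39 genes, and each was measured by the probe set that the array annotation ties to that gene alone, taking the one with the highest mean where a gene had several. By that rule 34 of the 39 genes were measured, and all 34 passed the filter on low values, out of 11597 genes and 20537 probe sets that passed it on the whole array. Every probe set of Prdx1 and Ftl1 was shared with a related gene or pseudogene, so these were left out, and Prdx5, Prdx6 and G6pdx were not analysed here.

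NRF2, the product of Nfe2l2, is a transcription factor that the adaptor KEAP1 marks for degradation in unstressed cells. Oxidants and electrophiles alter cysteines of KEAP1, NRF2 then accumulates, pairs with a small MAF protein and binds antioxidant response elements near genes for glutathione synthesis, thioredoxin recycling, quinone reduction and NADPH supply. Ozone reacts in the lung lining fluid and forms lipid peroxidation products, and Nfe2l2 is known for protecting the lung from inhaled oxidants.

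Left lung RNA of male mice aged 6 to 8 weeks was hybridised to Affymetrix MOE430A arrays, 1 mouse to an array, 24 arrays in 8 groups of 3. Tnfr+/+ mice were C57BL/6J, and Tnfr-/- mice (B6.129S-Tnfrsf1a tm1Imx Tnfrsf1b tm1Imx/J) lack both receptors for TNF in every cell. Mice of each genotype breathed either 0.3 ppm O3 without pause for 24, 48 or 72 h, or filtered air in a parallel chamber, and a single air group per genotype was the control for all 3 times. The 2 lines were bought as separate stocks, so the receptor deletions and any other difference between the stocks cannot be told apart.

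Values are normalized intensities, which order the arrays for a gene but not different genes against each other, and differences are log2 fold changes ± SE from limma, called where the Benjamini-Hochberg adjusted p over all 20537 probe sets was under 0.05. On 1 of the 2 probe sets of Tnfrsf1b the highest intensity among Tnfr-/- arrays was 266 against a lowest of 356 among Tnfr+/+ arrays, on the other the genotypes overlapped (104 to 222 and 108 to 293), and Tnfrsf1a ranged from 1400 to 2340 against 2030 to 3620, and whether these probes lie in the disrupted exons was not checked. Surfactant and club cell genes stood among the brightest of all probe sets, with Sftpc between 28400 and 32100 and Scgb1a1 between 25300 and 30100 over the 24 arrays. Tnfr+/+ O3 72 h replicate 1 stood apart: its mean correlation with the other arrays was 0.926 against 0.942 to 0.954 for the rest, and its Gapdh 3′ to 5′ signal ratio was 4.45 against 0.89 to 1.74. Its beta-actin ratio, 1.18, lay within the range of 1.01 to 1.95. The Gapdh ratio also moved with the groups: it was 1.28 to 1.43 in Tnfr-/- air and 0.89 to 1.22 on all Tnfr-/- O3 arrays, and at 24 h of O3 it was 1.53 to 1.74 in Tnfr+/+ against 1.03 to 1.22 in Tnfr-/-. In Tnfr+/+ lungs the Gapdh ratio was 1.31 to 1.56 in air and 1.06 and 1.02 on O3 72 h replicates 2 and 3. The beta-actin ratio was 1.2 to 1.27 in Tnfr-/- air and 1.01 to 1.16 on all Tnfr-/- O3 arrays. In Tnfr+/+ lungs the beta-actin ratio was 1.26 to 1.55 in air, 1.31 to 1.95 at 24 h and 1.1 to 1.18 at 72 h. The part of these ratios in the results was not tested. Lung tissue is a mixture of cells, in which fewer cells of a type and less RNA per cell cannot be told apart.

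In Tnfr+/+ lungs none of the 34 was called at 24 h, where 0.0828% of all probe sets were called, and none at 48 h, where 1.17% were. At an unadjusted p under 0.05 there were 9 members at 24 h (8 higher and 1 lower), beside 5.89% of all probe sets, and 14 at 48 h (all higher), beside 11.6%. At 72 h 3 were called (Gclc and Prdx4 higher, Cat lower) against 3.1% of all probe sets. The median log2 fold change of the 34 was 0.12, 0.20 and 0.13 at the 3 times, beside medians near 0 over all probe sets.

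In Tnfr-/- lungs Gclc, Gsr and Gpx2 were called at 24 h against a background of 1.1%, Gclc, Gsr, Prdx4, Maff and Taldo1 at 48 h (background 3.83%), and Gclc, Gsr and Prdx4 at 72 h (background 3.96%). All of these rose, and the median over the 34 was 0.37, 0.29 and 0.27. Leaving out any one of the 6 compared arrays gave 1 to 3 calls at 48 h, a replicate block gave 3, and without Tnfr+/+ O3 72 h replicate 1 there were 6, 7 and 5 calls at the 3 times. That a gene passed in 1 genotype and not in the other is not a test of the difference, which is given with the genotype comparisons.

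Averaged over both genotypes, 6 O3 arrays against 6 air arrays, 5 members rose at 24 h (Gclc, Gsr, Gpx2, Txnrd1 and Nqo1), 13 at 48 h and 8 at 72 h, and 1 (Cat) fell at 72 h. Among all probe sets 1.28%, 7.32% and 10.7% were called at these times, and 0.945%, 4.39% and 5.63% were called higher. The median log2 fold change of the members was 0.25, 0.27 and 0.18, with 25 of 34 values above 0 at each time. The 3 times share the same 6 air arrays, so an error in those arrays enters all of them. Without Tnfr+/+ O3 72 h replicate 1, whose spread enters every comparison of the shared fit, the counts called were 8, 15 and 14. At 24 h 3 were called without any one of Tnfr+/+ air replicate 2 and O3 24 h replicates 2 and 3 and Tnfr-/- air replicates 2 and 3 and O3 24 h replicate 3. At 48 h 6 to 8 were called without any one of Tnfr+/+ air replicates 1, 2 and 3 and Tnfr-/- air replicates 2 and 3 and O3 48 h replicates 1 and 2, and at 72 h the lowest count was 6, without Tnfr-/- O3 72 h replicate 3.

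**Figure D1:**
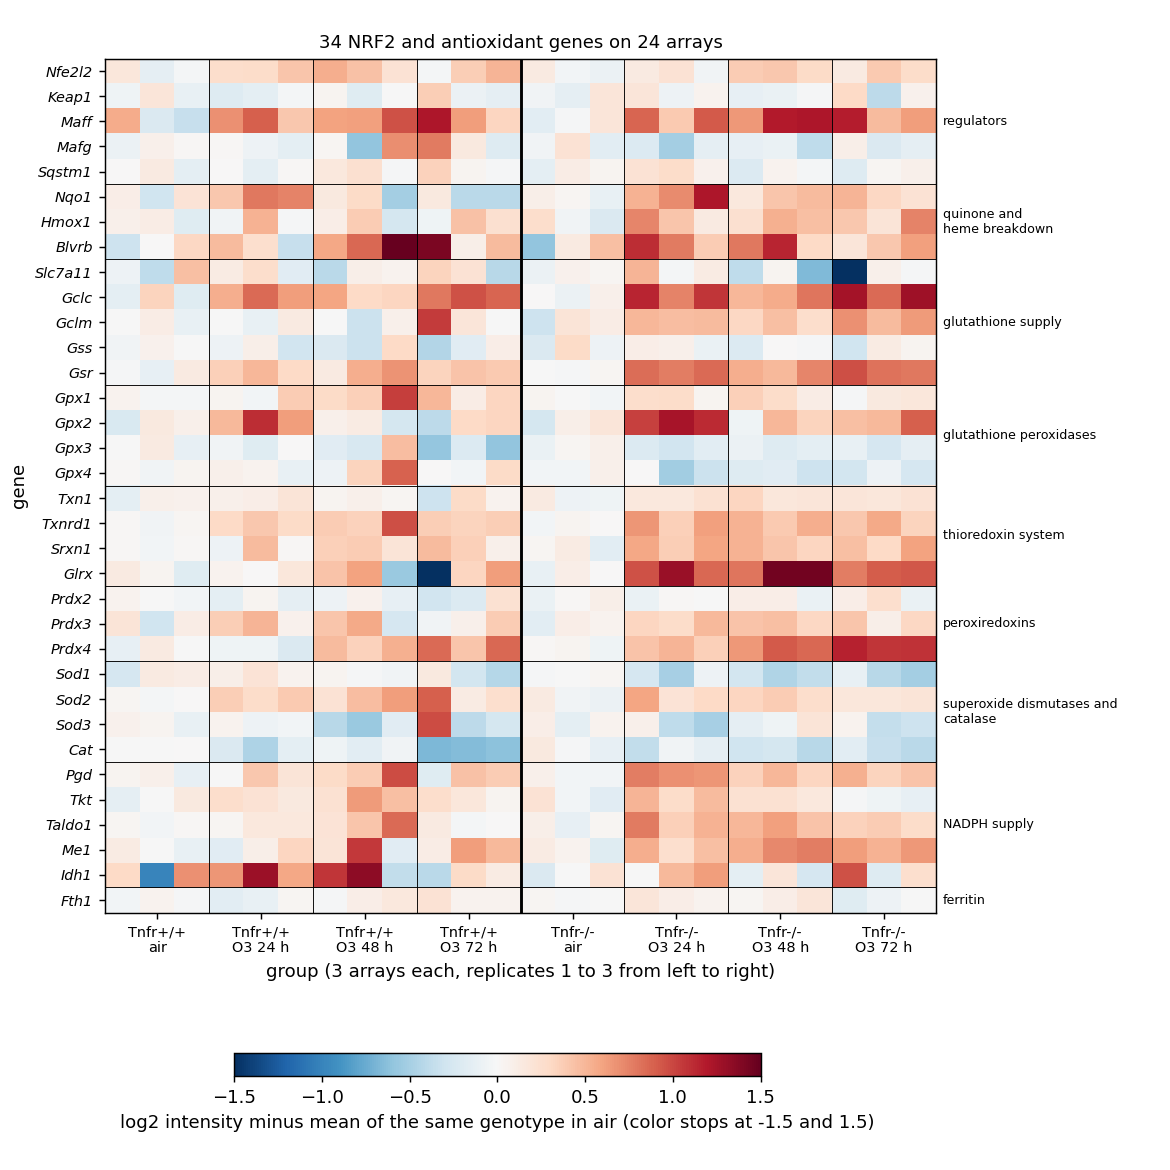
Each row is 1 of the 34 genes and each column 1 of the 24 arrays, in 8 groups of 3. Color gives the log2 intensity minus the mean of the same genotype in air, from -1.5 (blue) to 1.5 (red). The rows of Gclc, Gsr, Txnrd1 and Prdx4 turn red under O3, that of Cat turns blue, and Keap1, Prdx2 and Fth1 stay pale.

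The sequence that NRF2 with a small MAF partner is known to bind has the core TGACNNNGC, and its letters were searched on both strands of the RefSeq promoter windows (GRCm38.p6) that run from 250 bases before to 50 bases after each transcription start. A window was given for 30 of the 34 genes, and 9 of the 30 (30%) held the core, beside 14% of all 27025 genes and 12.4% of all 32851 windows of the same length. Among the 15 genes with a window that were called in any comparison 7 held it, and among the other 15 with a window 2 did (Mafg and Sod1). The 7 are shown because they are the called members whose promoter holds the core letters, written 5′ to 3′ on the strand of the core, with the core in capitals and 8 bases on each side.
Nfe2l2 (chr2:75704895-75704903, gene on the minus strand, core on the gene's strand): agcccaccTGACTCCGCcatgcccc
Maff (chr15:79346509-79346517, gene on the plus strand, core on the gene's strand): gcgtctcaTGACTCTGCcactggaa
Gclm (chr3:122245423-122245431, gene on the plus strand, core on the opposite strand): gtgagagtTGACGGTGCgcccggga
Txnrd1 (chr10:82859114-82859122, gene on the plus strand, core on the opposite strand): tgtcagaaTGACAAAGCaaaaatcc
Srxn1 (chr2:152105552-152105560, gene on the plus strand, core on the opposite strand): tctcactcTGACCTAGCtgcccact
Pgd (chr4:149166071-149166079, gene on the minus strand, core on the gene's strand): ttcagagcTGACATTGCactgatcg
Me1 (chr9:86695912-86695920, gene on the minus strand, core on the gene's strand): tgccgccgTGACTCAGCgcttctcg

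Positions are those of the core base farthest upstream on the gene's strand. It lay 240 bases before the start in Nfe2l2, 134 in Gclm, 112 in Maff, 92 in Txnrd1 and 6 in Me1. In Pgd it was base 4 after the start and in Srxn1 base 29. In Gclm, Txnrd1 and Srxn1, where the core is on the opposite strand, that base is the last of the printed capitals. The core in Me1 also holds TGACTCA, the letters known for AP-1. The core of Txnrd1 lies inside the annotated gene (chr10:82833951-82897724), and so does that of Pgd (chr4:149149991-149166705). Their windows stand at inner transcript starts and not at the outer end of the gene. The window of Gclm also stands at an inner start, so its 134 bases are not counted from the first base of the annotated gene (chr3:122245487). A match is a description of letters and not a bound site, and a window without one says nothing of elements farther away.

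Nfe2l2 itself rose at 48 h. Its intensities in Tnfr+/+ lungs were 2880, 2330 and 2520 in air and, after 24, 48 and 72 h of O3, 3070, 3110 and 3420, then 3740, 3480 and 2980, then 2520, 3320 and 3640. Those of Tnfr-/- lungs were 2910, 2570 and 2490 in air and, after 24, 48 and 72 h of O3, 2920, 3090 and 2550, then 3460, 3500 and 3230, then 2920, 3480 and 3220. At 48 h all 6 O3 arrays lay above all 6 air arrays, and the averaged rise was 0.38 ± 0.10, adjusted p = 0.023, whereas the values at 24 h (0.21 ± 0.10, adjusted p = 0.42) and 72 h (0.28 ± 0.10, adjusted p = 0.08) did not pass. The call at 48 h was lost without any one of Tnfr+/+ air replicates 2 and 3 and O3 48 h replicate 1 and Tnfr-/- air replicates 2 and 3 and O3 48 h replicates 1 and 2 (highest adjusted p 0.063).

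Keap1, the inhibitor of NRF2, was called in no comparison. It read 924, 1100 and 895 in air and, after 24, 48 and 72 h of O3, 847, 878 and 949, then 1000, 854 and 963, then 1250, 910 and 881 in Tnfr+/+ lungs. Tnfr-/- lungs gave 866, 819 and 1020 in air and, after 24, 48 and 72 h of O3, 1020, 853 and 933, then 825, 841 and 888, then 1100, 684 and 938. The groups overlapped at every time, with averaged log2 fold changes of -0.03 ± 0.12, -0.06 ± 0.12 and 0.02 ± 0.12 (adjusted p of 0.96, 0.82 and 0.94). A dimmer second probe set of Keap1 was called higher at 72 h, with an averaged log2 fold change of 0.61 (adjusted p = 0.029).

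Maff, a small MAF protein that pairs with NRF2 and other factors, rose at 48 and 72 h. Tnfr+/+ arrays read 412, 241 and 219 in air and, after 24, 48 and 72 h of O3, 449, 520 and 370, then 424, 426 and 540, then 645, 430 and 348. Tnfr-/- arrays read 248, 273 and 314 in air and, after 24, 48 and 72 h of O3, 509, 364 and 523, then 436, 632 and 643, then 627, 385 and 429. One Tnfr+/+ air array (412) lay near the O3 values, and the other 5 air arrays lay between 219 and 314. The averaged rise was 0.87 ± 0.19, adjusted p = 0.0074 at 48 h and 0.74 ± 0.19, adjusted p = 0.016 at 72 h, while 0.70 ± 0.19, adjusted p = 0.082 at 24 h did not pass. In Tnfr-/- lungs alone the 48 h rise was 1.02 ± 0.27, adjusted p = 0.037, a call lost without any one of Tnfr-/- air replicates 1, 2 and 3 and O3 48 h replicates 2 and 3 (highest adjusted p 0.15). Mafg, a second small MAF gene, and Sqstm1, the autophagy receptor p62 that binds KEAP1, were called in no comparison, with averaged O3 effects between -0.18 and 0.08.

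Nqo1, which reduces quinones, rose at 24 h. Its intensities in Tnfr+/+ lungs were 185, 140 and 199 in air and, after 24, 48 and 72 h of O3, 228, 298 and 290, then 191, 211 and 121, then 191, 130 and 131, and 2 arrays of that genotype at 72 h fell below every air array. Tnfr-/- values were 167, 161 and 146 in air and, after 24, 48 and 72 h of O3, 227, 258 and 365, then 176, 211 and 220, then 225, 195 and 184. At 24 h all 6 O3 arrays (227 to 365) lay above all 6 air arrays (140 to 199), a rise of 0.73 ± 0.15, adjusted p = 0.022. The change from 24 h to 72 h was itself called (-0.67 ± 0.15, adjusted p = 0.023), and the 2 sets of 6 arrays did not overlap. The rise at 24 h was lost without any one of Tnfr+/+ air replicate 2 and O3 24 h replicates 2 and 3 and Tnfr-/- air replicates 2 and 3 and O3 24 h replicate 3 (highest adjusted p 0.071), and the change from 24 to 72 h without any one of Tnfr+/+ O3 24 h replicates 2 and 3 and O3 72 h replicate 3 and Tnfr-/- O3 24 h replicate 3 and O3 72 h replicates 2 and 3 (highest adjusted p 0.07).

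Blvrb, which reduces biliverdin and flavins, rose at 48 h (0.88 ± 0.25, adjusted p = 0.038), where its 6 O3 arrays read 205 to 495 against 111 to 228 in air. Both sets overlapped, and the call was lost without any one of Tnfr+/+ air replicates 1 and 2 and O3 48 h replicates 2 and 3 and Tnfr-/- air replicates 1 and 2 and O3 48 h replicates 1 and 2 (highest adjusted p 0.11). Hmox1, the inducible enzyme that opens the heme ring, was called in no comparison and read 312 to 436 in air and 328 to 608 under O3, with averaged effects of 0.29 ± 0.15, 0.24 ± 0.15 and 0.33 ± 0.15.

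In glutathione synthesis and recycling Gclc and Gsr rose at all 3 times. Gclc, the catalytic subunit of the enzyme that sets the rate of glutathione synthesis, read 2010, 2790 and 1950 in air and, after 24, 48 and 72 h of O3, 3240, 4000 and 3430, then 3350, 2720 and 2780, then 3850, 4300 and 4060 in Tnfr+/+ lungs. It read 2460, 2320 and 2600 in air and, after 24, 48 and 72 h of O3, 5410, 4120 and 5160, then 3470, 3620 and 4280, then 5840, 4440 and 5940 in Tnfr-/- lungs. Every O3 array at 24 h and 72 h lay above every air array, while at 48 h 2 Tnfr+/+ arrays (2720 and 2780) lay just under the highest air array (2790). The averaged rises were 0.83 ± 0.11, adjusted p = 0.00054 at 24 h, 0.51 ± 0.11, adjusted p = 0.0085 at 48 h and 1.00 ± 0.11, adjusted p = 1.1e-05 at 72 h, and no single array ended any of them. By genotype Gclc was called at 72 h in Tnfr+/+ (0.87 ± 0.16, adjusted p = 0.0048) and at 24, 48 and 72 h in Tnfr-/- (0.98 ± 0.16, 0.62 ± 0.16 and 1.12 ± 0.16, adjusted p of 0.0033, 0.035 and 0.00031), the 48 h call of Tnfr-/- being lost without any one of Tnfr-/- air replicates 1, 2 and 3 and O3 48 h replicates 1, 2 and 3 (highest adjusted p 0.14). A second Gclc probe set was called at all 3 times as well, with averaged log2 fold changes of 0.74, 0.53 and 0.75.

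Gsr, glutathione reductase, which turns oxidized glutathione back with NADPH, separated all O3 from all air arrays. Tnfr+/+ values were 713, 662 and 790 in air and, after 24, 48 and 72 h of O3, 921, 1020 and 885, then 793, 1050 and 1150, then 910, 966 and 946. Tnfr-/- values were 667, 661 and 683 in air and, after 24, 48 and 72 h of O3, 1200, 1140 and 1210, then 976, 939 and 1110, then 1310, 1180 and 1160. The lowest of 18 O3 arrays (793) lay above the highest of 6 air arrays (790). Averaged rises were 0.60 ± 0.09, adjusted p = 0.00097 at 24 h, 0.52 ± 0.09, adjusted p = 0.00099 at 48 h and 0.62 ± 0.09, adjusted p = 0.00013 at 72 h, none of them lost when an array was left out. Within Tnfr-/- lungs it was called at each time (0.82 ± 0.12, 0.58 ± 0.12 and 0.86 ± 0.12, adjusted p of 0.0023, 0.011 and 0.00042), and the 48 h call was lost without Tnfr-/- O3 48 h replicate 3 (highest adjusted p 0.062). Within Tnfr+/+ lungs it was not (0.39 ± 0.12, 0.46 ± 0.12 and 0.39 ± 0.12, adjusted p of 0.52, 0.088 and 0.1).

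Gclm, the modifier subunit that partners Gclc, rose at 72 h. In Tnfr+/+ lungs the arrays read 692, 749 and 644 in air and, after 24, 48 and 72 h of O3, 693, 642 and 761, then 691, 553 and 734, then 1430, 786 and 692. In Tnfr-/- lungs they read 443, 629 and 595 in air and, after 24, 48 and 72 h of O3, 776, 756 and 763, then 680, 753 and 661, then 883, 764 and 857. The 1430 belongs to the array that stands apart, and the other Tnfr+/+ O3 arrays lay within 553 to 786 against 644 to 749 in air. The averaged rise at 72 h was 0.51 ± 0.14, adjusted p = 0.028, and without that array it was 0.345 (adjusted p = 0.035). The call was lost without any one of Tnfr+/+ air replicates 1 and 3 and Tnfr-/- air replicate 1 and O3 72 h replicates 1 and 3 (highest adjusted p 0.079). Gss, which adds glycine to complete glutathione, and Slc7a11, the cystine importer, were called in no comparison and had averaged effects between -0.24 and 0.13.

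Among the glutathione peroxidases, Gpx2, the epithelial form, rose at 24 h. Tnfr+/+ arrays gave 520, 677 and 645 in air and, after 24, 48 and 72 h of O3, 856, 1310 and 943, then 642, 667 and 509, then 464, 750 and 760. Tnfr-/- arrays gave 463, 588 and 628 in air and, after 24, 48 and 72 h of O3, 1130, 1310 and 1210, then 530, 781 and 700, then 760, 778 and 1030. At 24 h the 6 O3 arrays (856 to 1310) all lay above the 6 air arrays (463 to 677), and by 48 h both sets overlapped. The rise at 24 h was 0.93 ± 0.15, adjusted p = 0.0027 averaged and 1.13 ± 0.21, adjusted p = 0.01 in Tnfr-/- alone, the latter lost without any one of Tnfr-/- air replicate 1 and O3 24 h replicate 2 (highest adjusted p 0.057). The change from 24 h to 72 h was -0.59 ± 0.15, adjusted p = 0.039, a call lost without any one of Tnfr+/+ O3 24 h replicates 2 and 3 and O3 72 h replicate 1 and Tnfr-/- O3 24 h replicates 1, 2 and 3 and O3 72 h replicates 1 and 2 (highest adjusted p 0.11).

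Gpx1, the form present in most cells, rose at 48 h (0.40 ± 0.12, adjusted p = 0.043), with 6250 to 11700 on 6 O3 arrays and 5590 to 5950 on 6 air arrays. The 11700 was Tnfr+/+ O3 48 h replicate 3, without which the value was 0.28 (adjusted p = 0.074), and the call was lost without any one of Tnfr+/+ air replicates 1, 2 and 3 and O3 48 h replicate 3 and Tnfr-/- air replicates 1, 2 and 3 and O3 48 h replicates 1 and 2 (highest adjusted p 0.094). Gpx3, the secreted form, and Gpx4, which reduces lipid hydroperoxides in membranes, were called nowhere, with averaged effects between -0.31 and 0.08.

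In the thioredoxin system, Txnrd1, the cytosolic reductase that recharges thioredoxin with NADPH, rose at all 3 times. Intensities of Tnfr+/+ lungs were 1360, 1300 and 1370 in air and, after 24, 48 and 72 h of O3, 1650, 1780 and 1640, then 1750, 1700 and 2630, then 1730, 1690 and 1740. Those of Tnfr-/- lungs were 1200, 1270 and 1240 in air and, after 24, 48 and 72 h of O3, 1960, 1580 and 1900, then 1780, 1620 and 1800, then 1630, 1830 and 1560. The lowest O3 array (1560) lay above the highest air array (1370). Averaged rises were 0.44 ± 0.10, adjusted p = 0.027 at 24 h, 0.53 ± 0.10, adjusted p = 0.002 at 48 h and 0.40 ± 0.10, adjusted p = 0.012 at 72 h, and the one at 24 h was lost without any one of Tnfr+/+ air replicates 1, 2 and 3 and O3 24 h replicates 2 and 3 and Tnfr-/- air replicates 1, 2 and 3 and O3 24 h replicates 1 and 3 (highest adjusted p 0.087).

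Srxn1, sulfiredoxin, which restores over-oxidized peroxiredoxins, rose at 48 and 72 h. It read 311, 298 and 310 in air and, after 24, 48 and 72 h of O3, 291, 424 and 311, then 391, 400 and 351, then 425, 391 and 323 in Tnfr+/+ lungs. Tnfr-/- lungs read 314, 336 and 277 in air and, after 24, 48 and 72 h of O3, 462, 398 and 463, then 441, 410 and 384, then 421, 379 and 467. Over all air arrays the range was 277 to 336, and 2 Tnfr+/+ arrays at 24 h and 1 at 72 h lay within it, while every Tnfr-/- O3 array lay above it. Averaged rises were 0.36 ± 0.10, adjusted p = 0.034 at 48 h and 0.38 ± 0.10, adjusted p = 0.023 at 72 h, lost without any one of Tnfr+/+ air replicates 1, 2 and 3 and O3 48 h replicates 1 and 2 and Tnfr-/- air replicates 1 and 3 and O3 48 h replicates 1 and 2 (highest adjusted p 0.094) and without any one of Tnfr-/- air replicate 3 and O3 72 h replicate 3 (highest adjusted p 0.065). At 24 h the value was 0.33 ± 0.10, adjusted p = 0.15.

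Glrx, glutaredoxin, was decided by 1 array. Its intensity was 20.4 on Tnfr+/+ O3 72 h replicate 1 and 321 to 1090 on the other 23 arrays, and no averaged O3 effect was called (0.56 ± 0.57, 0.69 ± 0.57 and -0.16 ± 0.57, adjusted p of 0.8, 0.53 and 0.9). Without that array the averaged rise was 0.69 at 48 h (adjusted p = 0.013) and 0.67 at 72 h (adjusted p = 0.019), and in Tnfr-/- lungs 1.03, 1.22 and 0.87 at the 3 times (adjusted p of 0.031, 0.0046 and 0.038). A dimmer second Glrx probe set was called at all 3 times with all arrays kept, by 0.92, 1.26 and 0.70. Txn1, thioredoxin itself, was called in no comparison (0.15 ± 0.09, 0.14 ± 0.09 and 0.10 ± 0.09).

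Prdx4, the peroxiredoxin of the endoplasmic reticulum, rose at 48 and 72 h. Tnfr+/+ lungs read 822, 982 and 889 in air and, after 24, 48 and 72 h of O3, 856, 854 and 773, then 1240, 1140 and 1300, then 1610, 1190 and 1630. Tnfr-/- lungs read 925, 946 and 879 in air and, after 24, 48 and 72 h of O3, 1230, 1300 and 1170, then 1440, 1740 and 1660, then 2040, 1920 and 1950. Tnfr+/+ arrays at 24 h lay within the air range or below it, Tnfr-/- arrays at 24 h lay above it, and at 48 and 72 h every O3 array lay above every air array. The averaged effect grew from 0.16 ± 0.09, adjusted p = 0.53 at 24 h to 0.63 ± 0.09, adjusted p = 0.00014 at 48 h and 0.90 ± 0.09, adjusted p = 1.6e-06 at 72 h, and the step from 24 to 72 h was called (0.75 ± 0.09, adjusted p = 4e-05). The 72 h rise was called in each genotype, 0.70 ± 0.12 in Tnfr+/+ and 1.10 ± 0.12 in Tnfr-/- (adjusted p of 0.0035 and 2.6e-05), and none of these was lost when an array was left out. Of the 34 genes 3 were called in that step (Prdx4 higher, Gpx2 and Nqo1 lower), and of all probe sets 3.17%. Prdx2, the abundant cytosolic form, and Prdx3, the mitochondrial one, were called nowhere, with averaged effects of -0.053 to -0.004 and of 0.20 to 0.34.

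**Figure D2:**
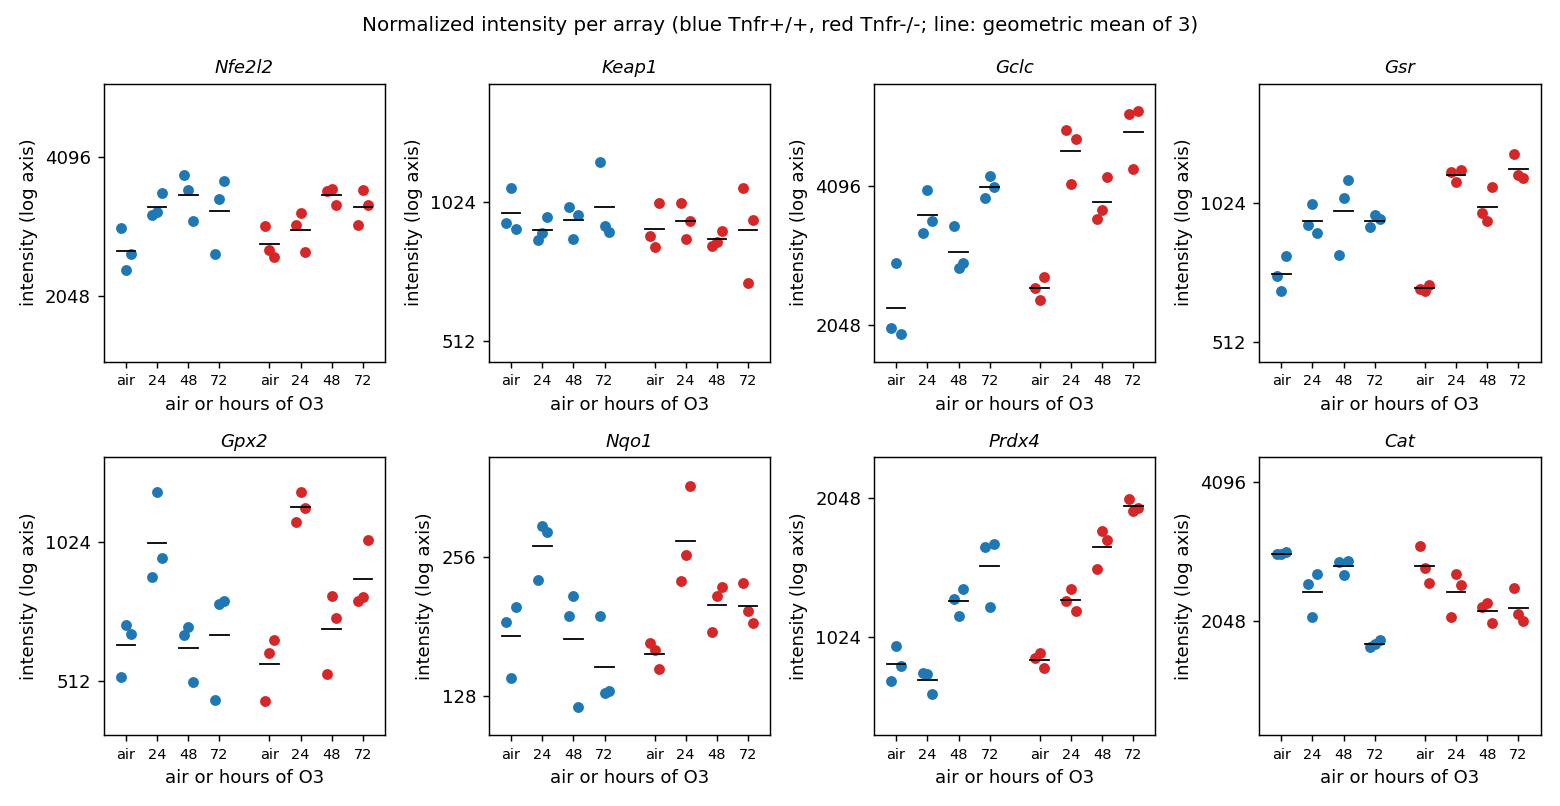
Normalized intensity (log axis) of 8 genes on each array, in air and after 24, 48 and 72 h of O3, with the geometric mean of each group of 3 as a line (blue Tnfr+/+, red Tnfr-/-). Gpx2 and Nqo1 are highest at 24 h, Prdx4 climbs to 72 h, Gclc and Gsr are up at each time, Cat is lowest at 72 h in Tnfr+/+ lungs and the Keap1 groups overlap.

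Cat, catalase, which breaks down hydrogen peroxide in peroxisomes, was called lower at 72 h. It read 2860, 2860 and 2890 in air and, after 24, 48 and 72 h of O3, 2470, 2090 and 2590, then 2750, 2580 and 2770, then 1800, 1830 and 1870 in Tnfr+/+ lungs. Tnfr-/- lungs read 2990, 2670 and 2480 in air and, after 24, 48 and 72 h of O3, 2090, 2600 and 2460, then 2200, 2250 and 2030, then 2420, 2130 and 2050. At 72 h the 3 Tnfr+/+ arrays (1800 to 1870) lay below every other array of the series, and all 6 O3 arrays lay below all 6 air arrays. The fall at 72 h was -0.47 ± 0.08, adjusted p = 0.00073 averaged, -0.65 ± 0.11, adjusted p = 0.0034 in Tnfr+/+ and -0.30 ± 0.11, adjusted p = 0.16 in Tnfr-/-, and the first and second were not lost when an array was left out. A second Cat probe set had an averaged value of -0.80 at 72 h (adjusted p = 0.057).

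Sod2, the mitochondrial superoxide dismutase, was not called in any averaged O3 comparison. Tnfr+/+ values were 1860, 1780 and 1820 in air and, after 24, 48 and 72 h of O3, 2350, 2200 and 2390, then 2110, 2500 and 2800, then 3400, 1980 and 2160. Tnfr-/- values were 2140, 1870 and 1830 in air and, after 24, 48 and 72 h of O3, 2920, 2230 and 2390, then 2420, 2520 and 2330, then 2190, 2180 and 2220. In each genotype all O3 arrays lay above all air arrays at each time, and the averaged values were 0.35 ± 0.11, adjusted p = 0.17 at 24 h, 0.38 ± 0.11, adjusted p = 0.052 at 48 h and 0.30 ± 0.11, adjusted p = 0.1 at 72 h. Without Tnfr+/+ O3 72 h replicate 1, where Sod2 read 3400, it was called at 24 h (0.35, adjusted p = 0.03) and 48 h (0.37, adjusted p = 0.0069). Sod1, the cytosolic form, and Sod3, the extracellular form, had averaged effects between -0.26 and -0.05, none called with all arrays. Without Tnfr+/+ O3 72 h replicate 1 Sod1 was called lower at 72 h (-0.35, adjusted p = 0.028).

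Of the 5 measured genes listed under the pentose phosphate pathway and NADPH supply 4 rose at 48 h (Pgd, Taldo1, Tkt and Me1), when 4.39% of all probe sets were called higher. Pgd, the second dehydrogenase of the pentose phosphate pathway, read 1640, 1680 and 1460 in air and, after 24, 48 and 72 h of O3, 1580, 2110 and 1820, then 1940, 2070 and 3140, then 1400, 2150 and 2070 in Tnfr+/+ lungs. Tnfr-/- lungs read 1700, 1570 and 1570 in air and, after 24, 48 and 72 h of O3, 2750, 2590 and 2560, then 2050, 2270 and 2010, then 2340, 2040 and 2160. All 6 arrays at 48 h lay above all 6 air arrays, a rise of 0.47 ± 0.12, adjusted p = 0.025, which without Tnfr+/+ O3 48 h replicate 3 (3140) was 0.36 (adjusted p = 0.051). The call was lost without any one of Tnfr+/+ air replicate 3 and O3 48 h replicate 3 and Tnfr-/- air replicates 2 and 3 and O3 48 h replicate 2 (highest adjusted p 0.067). At 24 h Pgd was 0.71 ± 0.17, adjusted p = 0.055 in Tnfr-/- and 0.20 ± 0.17, adjusted p = 0.99 in Tnfr+/+.

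Taldo1, transaldolase of the same pathway, gave 1190, 1130 and 1180 in air and, after 24, 48 and 72 h of O3, 1190, 1300 and 1300, then 1350, 1560 and 2100, then 1280, 1140 and 1170 in Tnfr+/+ lungs. It gave 1080, 934 and 1040 in air and, after 24, 48 and 72 h of O3, 1740, 1300 and 1460, then 1430, 1560 and 1370, then 1290, 1320 and 1230 in Tnfr-/- lungs. The 6 arrays at 48 h (1350 to 2100) lay above the 6 air arrays (934 to 1190), with an averaged rise of 0.51 ± 0.10, adjusted p = 0.0031 that no single array ended and 0.52 ± 0.14, adjusted p = 0.043 in Tnfr-/- alone, lost without any one of Tnfr-/- air replicates 1, 2 and 3 and O3 48 h replicates 1, 2 and 3 (highest adjusted p 0.17). At 72 h the averaged value was 0.18 ± 0.10, adjusted p = 0.26.

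Tkt, transketolase, its partner in the non-oxidative branch, read 2680, 2950 and 3260 in air and, after 24, 48 and 72 h of O3, 3540, 3420 and 3270, then 3450, 4610 and 4050, then 3560, 3310 and 3040 in Tnfr+/+ lungs. Tnfr-/- lungs read 3670, 3060 and 2800 in air and, after 24, 48 and 72 h of O3, 4480, 3820 and 4370, then 3700, 3710 and 3520, then 3130, 3030 and 2910, with 1 air array (3670) inside the 48 h range. Its averaged rise at 48 h was 0.32 ± 0.09, adjusted p = 0.032, a call lost without any one of Tnfr+/+ air replicates 1 and 2 and O3 48 h replicate 2 and Tnfr-/- air replicates 2 and 3 and O3 48 h replicates 1 and 2 (highest adjusted p 0.093), and at 72 h the value was 0.05 ± 0.09, adjusted p = 0.81. Me1, the cytosolic malic enzyme, rose at 48 h (0.53 ± 0.16, adjusted p = 0.049) and 72 h (0.50 ± 0.16, adjusted p = 0.047), with 1230 to 2880 and 1490 to 2130 on O3 arrays against 1020 to 1500 in air. The 48 h call of Me1 was lost without any one of Tnfr+/+ air replicates 1, 2 and 3 and O3 48 h replicates 1 and 2 and Tnfr-/- air replicates 1, 2 and 3 and O3 48 h replicates 1, 2 and 3 (highest adjusted p 0.12), and the 2880 belongs to Tnfr+/+ O3 48 h replicate 2, without which the value was 0.35. The 72 h call was lost without any one of Tnfr+/+ air replicates 1, 2 and 3 and O3 72 h replicates 2 and 3 and Tnfr-/- air replicates 1, 2 and 3 and O3 72 h replicates 1, 2 and 3 (highest adjusted p 0.11). Idh1, the cytosolic isocitrate dehydrogenase, scattered from 517 to 1660 in air and from 779 to 2600 under O3 and was not called, with values at 48 h of 0.68 ± 0.43 in Tnfr+/+ and -0.07 ± 0.43 in Tnfr-/-.

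Fth1, the heavy chain of the iron store ferritin, was called in no comparison and read 23800 to 25300 in air and 21600 to 28400 under O3, with averaged effects of 0.01 ± 0.07, 0.09 ± 0.07 and 0.01 ± 0.07.

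**Figure D3:**
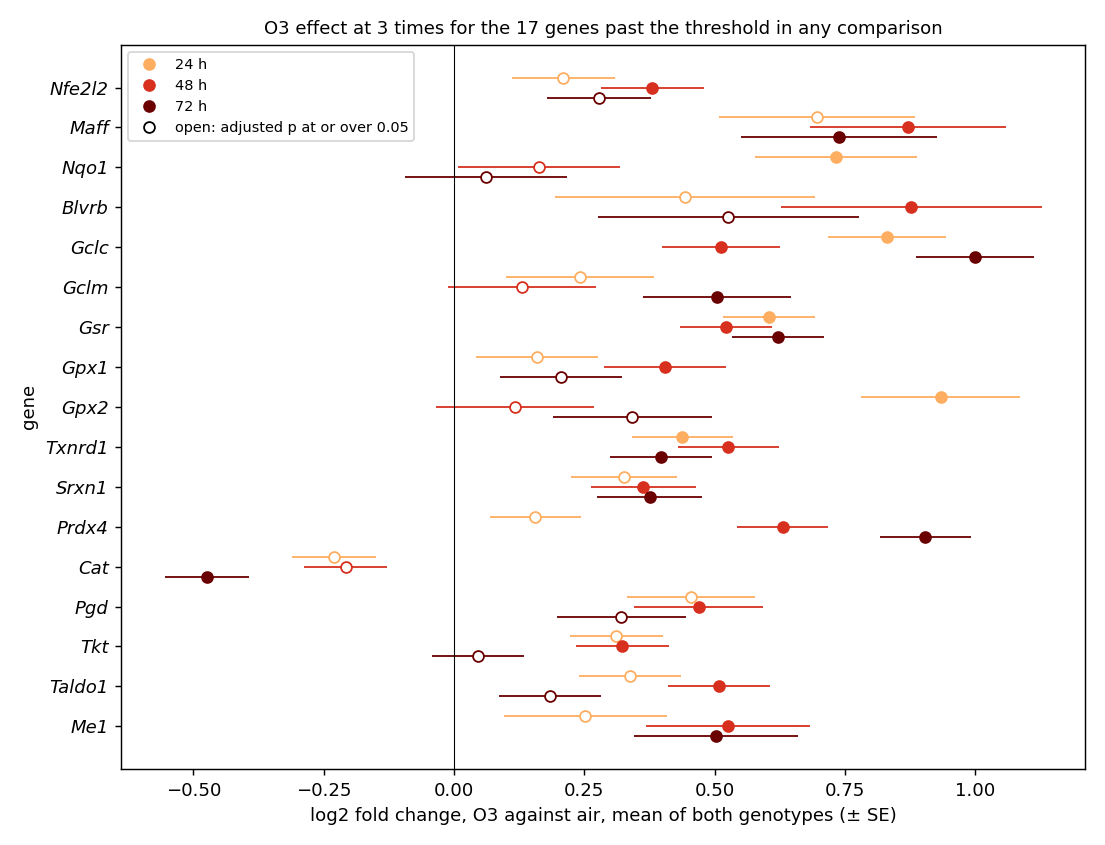
Averaged log2 fold change of O3 against air (± SE, 6 arrays against 6) at 24, 48 and 72 h for the 17 genes that were called in any comparison, with filled points where the adjusted p was under 0.05. Gclc, Gsr and Txnrd1 are filled at all 3 times, Gpx2 and Nqo1 at 24 h alone, and Cat lies below 0 at each time.

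Of the 17 called genes, 3 (Gclc, Gsr and Txnrd1) passed at all 3 times in the averaged comparison, Gpx2 and Nqo1 at 24 h alone, and Nfe2l2, Blvrb, Gpx1, Pgd, Taldo1 and Tkt at 48 h alone. Maff, Me1, Prdx4 and Srxn1 passed at 48 and 72 h, and Gclm and Cat at 72 h alone. Without Tnfr+/+ O3 72 h replicate 1 Gpx2 (adjusted p = 0.041) and Nfe2l2 (adjusted p = 0.014) also passed at 72 h, Maff (adjusted p = 0.045) at 24 h, and Pgd at 24 h (adjusted p = 0.031) and 72 h (adjusted p = 0.02). Passing at 1 time and not at another was tested as a difference only between 24 and 72 h.

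Between the genotypes few members were called, and those called were higher in Tnfr-/- lungs. In air no member was called, with 0.0876% of all probe sets called and with 1 member at an unadjusted p under 0.05 beside 6.92% of all probe sets. At 24 h of O3 Prdx4 was called (0.58 ± 0.12, adjusted p = 0.028) against a background of 1%, and 7 of the 34 members had an unadjusted p under 0.05, all of them higher, beside 14% of all probe sets. At this time all 3 B cell markers were called higher in Tnfr-/- lungs (Cd79a by 1.55 ± 0.29, Cd79b by 1.32 ± 0.28 and Ms4a1 by 1.30 ± 0.31, adjusted p of 0.018, 0.026 and 0.049), with sums of 2620 to 4030 against 1170 to 1230. None of the 8 alveolar macrophage markers was called there, with sums of 12500 to 15200 against 10400 to 11200, and the part of either list in the Prdx4 difference was not tested. At 48 h and 72 h none was called, against 0.166% and 0.161% of all probe sets, with 4 and 5 members at an unadjusted p under 0.05, near the 10.8% and 11.1% of all probe sets at that level. Averaged over the 4 exposures, 12 arrays against 12, Prdx4 (0.36 ± 0.06, adjusted p = 0.003) and Gclc (0.34 ± 0.08, adjusted p = 0.018) were called higher in Tnfr-/- lungs, against 5.65% of all probe sets, a share that 2 of 34 is close to.

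Both genotype differences rest on the probe set used. The 2 dimmer probe sets of Prdx4 gave -0.28 and 0.10 over all exposures and -0.52 and -0.19 at 24 h, and the second of Gclc gave -0.027 over all exposures, none of them called. The 24 h call of Prdx4 was also lost without any one of Tnfr+/+ O3 24 h replicates 1, 2 and 3 and Tnfr-/- O3 24 h replicates 1, 2 and 3 (highest adjusted p 0.13). The averaged O3 effect on Prdx4 at 72 h was 0.904 on the probe set used, 0.465 on the next brightest (adjusted p = 0.3) and 0.595 on the dimmest (adjusted p = 0.025).

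**Figure D4:**
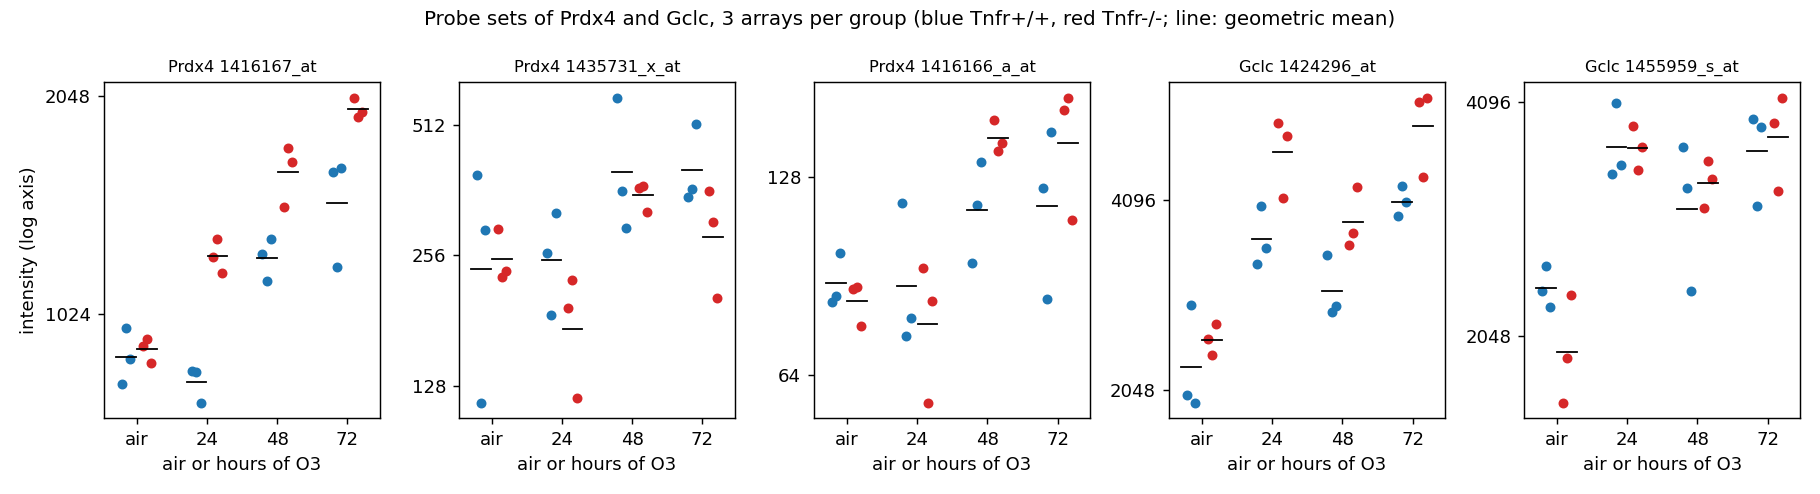
Normalized intensity (log axis) of the 3 probe sets of Prdx4 and the 2 of Gclc in air and after 24, 48 and 72 h of O3, with 3 arrays per group and their geometric mean as a line (blue Tnfr+/+, red Tnfr-/-). On the probe set used for each gene the red points lie above the blue ones at each time of O3, and on the other 3 probe sets the colors overlap at 1 or more of these times.

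No member was called in the test of whether the O3 effect itself differed between genotypes, at 24, 48 or 72 h, where limma called 0.00974%, 0% and 0.00487% of all probe sets. At an unadjusted p under 0.05 there were 3 members at 24 h, 1 at 48 h and 3 at 72 h, beside 6.22%, 5.51% and 5.31% of all probe sets, shares that the members are near. The lowest unadjusted p at 24 h was that of Prdx4, whose effect was 0.43 ± 0.12 in Tnfr-/- and -0.12 ± 0.12 in Tnfr+/+, a difference of 0.54 ± 0.17 (adjusted p = 0.58). Gsr differed by 0.44 ± 0.18 at 24 h and 0.47 ± 0.18 at 72 h (adjusted p of 0.72 and 0.87). These tests set 3 arrays against 3 in each genotype, and a difference that misses the threshold does not show that the genotypes respond alike.

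**Figure D5:**
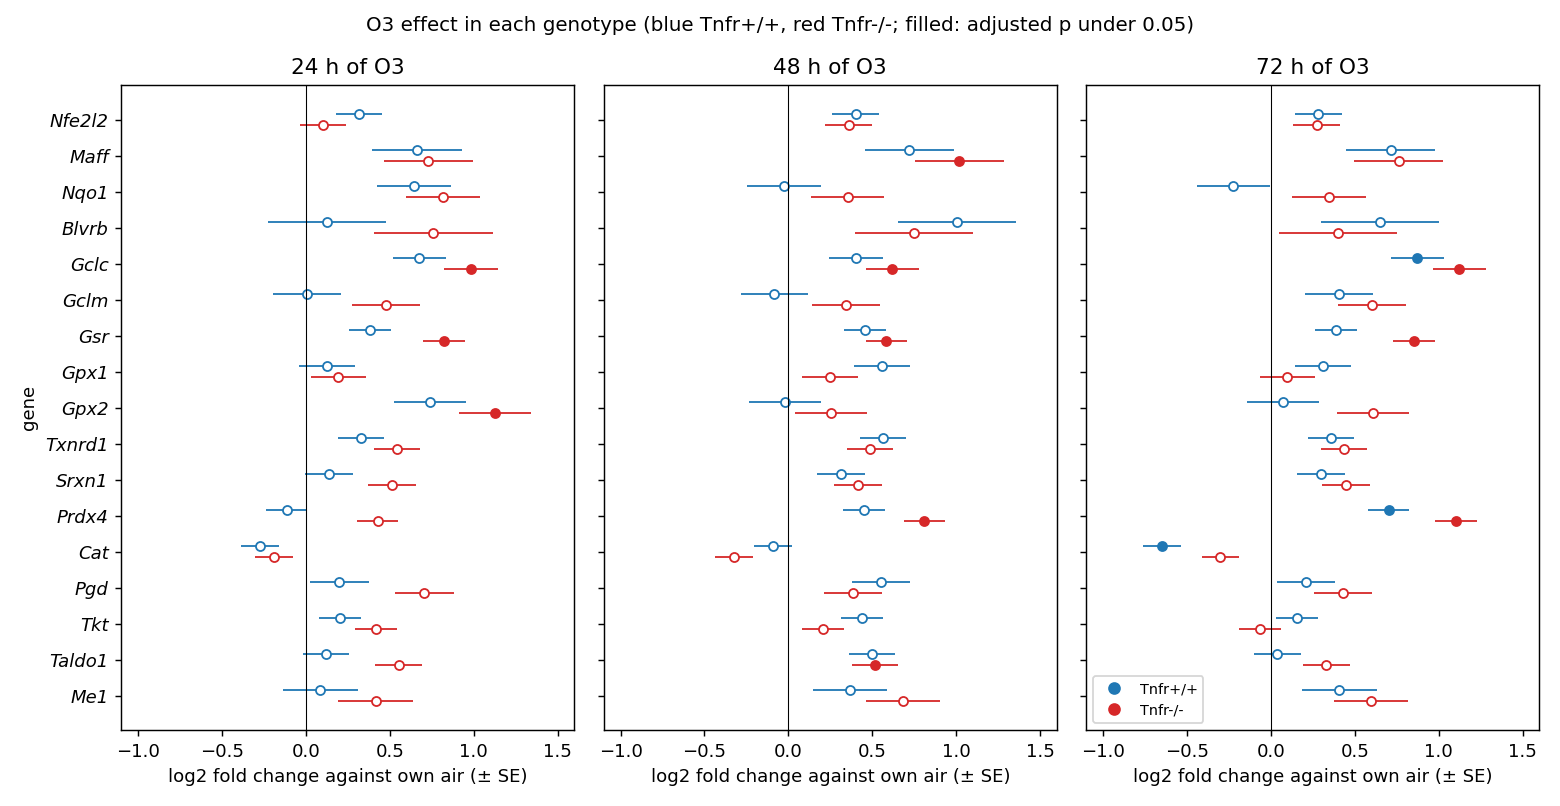
Log2 fold change of O3 against the genotype's own air group (± SE, 3 arrays against 3) for the 17 genes called in any comparison, at 24, 48 and 72 h (blue Tnfr+/+, red Tnfr-/-), with filled points where the adjusted p was under 0.05. At 24 h the red points of Gclc, Gsr, Gpx2, Prdx4, Pgd and Taldo1 lie to the right of the blue ones, and the difference was called for none of them.

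Of the 8 alveolar macrophage markers measured none was called at 24 h and 5 rose at 48 h and at 72 h (Chil3, Ctsk, Marco, Mrc1 and Plet1). In the averaged comparison 1.28% of all probe sets were called at 24 h, and 4.39% and 5.63% were called higher at 48 and 72 h. The summed intensity of the 8 markers was 7900 to 11400 on air arrays, 10400 to 15200 at 24 h, 13700 to 30800 at 48 h and 15100 to 18400 at 72 h. The 30800 was Tnfr+/+ O3 48 h replicate 2, of which Fabp4, a gene of macrophages and fat cells, gave 12200, and that array was also the highest of the series in Me1 and Tkt. Tnfr+/+ O3 48 h replicate 3, the highest in Blvrb, Gpx1, Gpx3, Gpx4, Pgd, Taldo1 and Txnrd1, had the lowest macrophage sum of the 48 h arrays (13700). Without the one array the averaged comparison at 48 h called 9 members and without the other 11, against 13.

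All 5 markers of dividing cells rose at 48 and 72 h, when 4.39% and 5.63% of all probe sets were called higher in the averaged comparison. The sum of these markers was 542 to 862 in air, 1570 to 2750 at 48 h and 2780 to 3780 at 72 h, the hours at which Prdx4 rose. Among endothelial markers 2 of 5 fell at 48 h and 4 at 72 h, and 1 of 4 ciliated cell markers fell at each of these times. In the averaged comparison 602 of all 20537 probe sets were called lower at 48 h and 1037 at 72 h. Ciliated sums were 5770 to 6520 in air and 2560 to 4420 at 72 h, the time at which Cat fell. They were already lower at 48 h (3760 to 5360 in Tnfr+/+ and 3280 to 4140 in Tnfr-/-). At 24 h they were 4590 to 6050 in Tnfr+/+ and 3800 to 4590 in Tnfr-/-. Club cell sums in Tnfr+/+ lungs were 111000 to 117000 in air, 104000 to 108000 at 48 h and 88800 to 101000 at 72 h. In Tnfr-/- lungs club cell sums were 107000 to 117000 in air, 101000 to 106000 at 48 h and 103000 to 113000 at 72 h. None of the 8 neutrophil markers was called at any time. Their sums, taken with Camp, which did not pass the filter, moved differently by genotype. In Tnfr+/+ lungs they were 4890 to 5620 in air and 2460 to 3260 at 24 h. In Tnfr-/- lungs they were 2630 to 3250 in air and 3120 to 6120 at 24 h. Of the 6 alveolar type 2 markers none was called at any time. The part of these markers in the changes of the antioxidant genes was not tested.

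Of 47 further genes of the NRF2 pathway 43 passed the filter, and their directions were mixed. Averaged over genotypes 1 rose at 24 h, 3 rose and 3 fell at 48 h, and 3 rose and 6 fell at 72 h, beside 1.28%, 7.32% and 10.7% of all probe sets called, with medians of 0.04, -0.06 and -0.02. The aldo-keto reductase Akr1b8 was called higher at each time, by 0.88 ± 0.11, 0.93 ± 0.11 and 1.04 ± 0.11 (adjusted p of 0.00025, 2.7e-05 and 5.1e-06), and in each genotype at 48 and 72 h.

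Akr1b8 was higher in Tnfr-/- than Tnfr+/+ lungs by 0.28 ± 0.08, adjusted p = 0.039 over all exposures. Mgst3, a microsomal glutathione transferase, rose at 48 h (0.87 ± 0.15, adjusted p = 0.0013) and 72 h (0.69 ± 0.15, adjusted p = 0.0063), Mafk, the third small MAF gene, at 48 h (0.55 ± 0.13, adjusted p = 0.016), and Me2, the mitochondrial malic enzyme, at 72 h (0.44 ± 0.14, adjusted p = 0.049).

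Ephx1, microsomal epoxide hydrolase, fell at 48 h (-0.70 ± 0.10, adjusted p = 0.00021) and 72 h (-0.66 ± 0.10, adjusted p = 0.00027), Aox1, aldehyde oxidase, at 48 h (-0.63 ± 0.12, adjusted p = 0.002), and Aldh3a1, an aldehyde dehydrogenase, at 72 h (-0.49 ± 0.10, adjusted p = 0.004). At 72 h 3 glutathione transferases fell, Gstm1 (-0.72 ± 0.14, adjusted p = 0.0031), Gstm2 (-0.66 ± 0.16, adjusted p = 0.01) and Gstt2 (-1.12 ± 0.25, adjusted p = 0.006), and Txnip, which binds and inhibits thioredoxin, fell at 48 h (-0.56 ± 0.16, adjusted p = 0.036) and 72 h (-0.58 ± 0.16, adjusted p = 0.024). From 24 to 72 h 6 genes fell (Aldh3a1, Gsta2, Gstm1, Gstp1, Gstt2 and Mafk), by 0.35 to 1.09 on the log2 scale, and none rose. In that step 3.17% of all 20537 probe sets were called, 256 lower and 395 higher. The Gstm genes are alike in sequence, so their probe sets can share signal.

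Nnt, the transhydrogenase that makes NADPH in mitochondria, was higher in Tnfr-/- lungs at every exposure, by 1.23 ± 0.14 in air and 0.80 ± 0.14, 1.26 ± 0.14 and 1.11 ± 0.14 at 24, 48 and 72 h of O3 (adjusted p of 0.00036, 0.01, 0.00024 and 0.0012). C57BL/6J mice are known to carry a deletion in Nnt, so the stock and the receptor deletion cannot be told apart in this gene.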

How the data were processed

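Left lung RNA of 24 mice was measured on 24 Affymetrix MOE430A arrays. The deposited values are linear intensities per probe set that the authors made with Affymetrix Expression Console and MAS5, as the submitters' processing notes list them, with versions not given in the sources used here. An array gives no read depth, so the number of arrays limits the precision. The intensities were quantile normalized over all arrays, set to a floor of 1 and taken to log2, and a probe set was kept if it reached the 20th percentile of any array, leaving out 64 controls.

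All groups were fitted together in R 4.3.3 with limma 3.58.1 (1 mean per group, 16 residual degrees of freedom), and p-values were adjusted by Benjamini-Hochberg over 20537 probe sets. The fitting code was tested on simulated data. Nothing in the labels ties mice of the same replicate number together, and their deviations correlated between -0.0777 and 0.115, so no block was used.

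Members, pathway and marker lists were chosen with earlier results of these data known. Values per array are given for the 14 called members with the lowest adjusted p and for Nfe2l2, Keap1, Maff, Gclc, Gpx2 and Sod2, and other members by range. Of the other pathway genes and markers those called are named. Alternatives were the values as deposited, cyclic loess, no filter, a floor of 32, a replicate block and fits on the compared arrays alone. Further ones were an ordinary t-test between the compared groups, other probe sets and leaving out each array. The t-test was also read at unadjusted thresholds taken from the authors' methods, p under 0.01 for O3 and 0.05 for genotype. For genotype under O3 those methods name an ANOVA with Benjamini-Hochberg adjustment, which was not run here.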

Additional observations from a re-analysis of the deposited data

Results flagged for a closer look

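The probe sets of Prdx1, the cytosolic peroxiredoxin, are shared with Gm21399 and entered no comparison above. One of these 5 was called at 72 h of O3 against air averaged over both genotypes, with a log2 fold change of 0.407, and is listed because it lies in data that were not used.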

How the results depend on the processing

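The count of members called was within 1.5 times the main count in 18 of 18 comparisons with the values as deposited, without a filter and with a floor of 32, and in 17 with cyclic loess, which called 1 member in Tnfr+/+ at 48 h. The replicate block changed 1 count, from 5 to 3 in Tnfr-/- at 48 h, and kept 41 of 47 named calls. Fits on the compared arrays alone called 0 members in Tnfr+/+ at 72 h, 0 and 2 in Tnfr-/- at 24 and 48 h and 0 between genotypes at 24 h. The ordinary t-test after Benjamini-Hochberg called 1, 0, 0 and 0 in those 4 comparisons. At the unadjusted thresholds it called 2, 2 and 4 in Tnfr+/+ and 8, 10 and 8 in Tnfr-/- at 24, 48 and 72 h. Between genotypes it called 4, 8, 5 and 3 in air and at 24, 48 and 72 h, though the authors' methods name a different test for genotype under O3. The shares of all probe sets that this t-test took are not given here, so these counts have no background. At an unadjusted p under 0.05 limma took 6.92%, 14%, 10.8% and 11.1% of all probe sets between genotypes.

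Leaving out 1 array at a time gave 0 to 3 called members in Tnfr+/+ at 48 h, 2 to 6, 1 to 7 and 3 to 5 in Tnfr-/- at 24, 48 and 72 h, and 3 to 8, 6 to 15 and 6 to 14 averaged over genotypes. It gave 1 to 3 from 24 to 72 h, 0 to 1 between genotypes at 24 h and 2 to 3 over all exposures. Other probe sets of the same genes turned 5 directions. The second Gclc probe set gave -0.027 and the next brightest of Prdx4 -0.283 between genotypes over all exposures, those of Prdx4 gave -0.193 and -0.523 between genotypes at 24 h, and one of Pgd gave -0.018 at 48 h of O3. Of 50 named values on other probe sets 17 stayed called in the same direction and 28 lost the call. The cause was not tested.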

Other observations

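Prdx1 and Ftl1 were outside the list because of shared probe sets. At 24, 48 and 72 h of O3, averaged over both genotypes, the brightest probe set shared by Prdx1 and Gm21399 gave log2 fold changes of 0.341, 0.203 and 0.245 (limma adjusted p of 0.21, 0.34 and 0.21). The brightest one shared by Ftl1, the light chain of ferritin, and Ftl1-ps2 gave 0.048, 0.082 and -0.016 (limma adjusted p of 0.87, 0.57 and 0.92).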
